A study of Mus musculus with 18 samples.

Results

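The genes of cholesterol and fatty acid synthesis were followed in tumor-infiltrating T cells of mice, CD8+ and CD4+, taken from melanomas. The 31 genes were chosen by name from the sterol and fatty acid synthesis pathways and from genes that the SREBP transcription factors control, and were found by their Ensembl identifiers among 49671 gene models. The list holds 18 enzymes of the sterol arm, 9 of the fatty acid arm and 4 genes of control and transport. All 31 were found, and all 31 passed the filter on low counts that left 14080 genes for testing.

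T cells were sorted by flow cytometry from tumors that grew for 12 days under the skin of B6 mice, seeded with B16f10-OVA, a melanoma line made to carry ovalbumin. The first group of mice carried a floxed miR-155 gene without Cre, and its cells are called floxed here. The second group carried the same floxed gene with CD4cre, a Cre transgene that T cell precursors of both lineages express, and its cells are called deficient. No group carried Cre without the floxed gene, so the deletion cannot be told apart from the Cre transgene itself. The third group was deficient and also received anti-CTLA-4 and anti-PD-1/PD-L1 antibodies into the peritoneum on days 3, 6 and 9, and is called treated. CD8 and CD4 cells of each group gave 3 libraries, so 18 in all, and each library pools 2 to 3 tumors from separate mice. Floxed mice given antibodies were not analysed here, so all antibody comparisons were made within deficient cells. The labels do not say whether CD8 and CD4 libraries came from the same animals. The p-values therefore measure the spread between these pools.

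Cholesterol is built from acetyl units through mevalonate, farnesyl diphosphate and squalene, and fatty acids from acetyl units through malonyl-CoA. When sterols run low in the endoplasmic reticulum, the SREBP proteins are carried to the Golgi and cut, and the released fragment enters the nucleus. It switches on most genes of both arms, SREBP2 mainly those for sterols and SREBP1 mainly those for fatty acids. T cells raise both programs when they are activated and divide, since new membranes need both kinds of lipid.

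SREBP proteins act beside the factors NF-Y and Sp1 at promoters, so the promoter sequences of several genes that results below turn on are shown. They come from RefSeq (GRCm38.p6), where 24 of the 31 genes had at least 1 window of 250 bases before to 50 bases after a start site, 29 windows in all. The 250 upstream bases are printed from 5′ to 3′ on the gene's strand. Capitals mark CCAAT, the NF-Y box, read on either strand (ATTGG on the other), and TCACNCCAC, a sterol response element, also read on either strand. Hmgcs1 (chr13:119690101-119690350, plus strand), Cyp51 (chr5:4104698-4104947, minus strand), Lss (chr10:76531355-76531604, plus strand) and Fasn (chr11:120824548-120824797, minus strand) are shown because their response to the deletion differed between CD8 and CD4 cells. Elovl6 (chr3:129532136-129532385, plus strand) is shown as 1 of 4 genes called higher with the deletion in both cell types.
Hmgcs1: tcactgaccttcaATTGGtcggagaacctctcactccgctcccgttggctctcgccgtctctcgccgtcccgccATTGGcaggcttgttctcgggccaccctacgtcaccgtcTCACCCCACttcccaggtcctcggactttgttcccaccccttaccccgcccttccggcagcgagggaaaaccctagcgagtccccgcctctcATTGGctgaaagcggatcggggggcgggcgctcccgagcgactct
Cyp51: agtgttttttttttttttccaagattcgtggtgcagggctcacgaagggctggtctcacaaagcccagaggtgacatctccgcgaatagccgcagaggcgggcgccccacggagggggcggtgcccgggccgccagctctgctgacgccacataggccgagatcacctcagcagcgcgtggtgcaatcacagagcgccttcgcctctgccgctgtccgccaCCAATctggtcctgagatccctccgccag
Lss: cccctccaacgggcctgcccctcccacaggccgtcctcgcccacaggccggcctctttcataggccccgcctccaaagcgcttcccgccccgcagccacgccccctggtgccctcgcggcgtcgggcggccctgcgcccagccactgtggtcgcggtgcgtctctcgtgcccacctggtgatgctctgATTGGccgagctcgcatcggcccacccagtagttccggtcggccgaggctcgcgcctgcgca
Fasn: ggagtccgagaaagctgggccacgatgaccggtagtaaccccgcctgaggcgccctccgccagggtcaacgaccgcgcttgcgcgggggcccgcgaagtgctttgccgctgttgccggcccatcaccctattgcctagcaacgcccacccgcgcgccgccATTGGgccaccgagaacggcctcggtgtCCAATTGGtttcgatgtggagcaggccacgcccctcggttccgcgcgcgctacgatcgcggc
Elovl6: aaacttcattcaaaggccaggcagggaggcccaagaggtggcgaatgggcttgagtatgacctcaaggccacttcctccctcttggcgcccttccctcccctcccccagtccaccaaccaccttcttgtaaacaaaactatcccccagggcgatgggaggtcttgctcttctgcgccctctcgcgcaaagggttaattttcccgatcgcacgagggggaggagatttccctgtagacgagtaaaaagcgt
The Hmgcs1 stretch held 3 CCAAT boxes, those of Cyp51 and Lss 1 each, that of Fasn 3 (2 of them overlapping on opposite strands) and that of Elovl6 none. The same stretches of Msmo1 and Acss2, also called higher in both cell types, held 3 and 1 CCAAT boxes. TCACNCCAC was in 1 of the 29 windows, that of Hmgcs1 at position -137 from the start site, or 3.45% against 1.24% of all 32851 RefSeq windows. CCAAT was in 72.4% of the windows of the 31 genes and in 37.4% of all windows. For GGGCGG, the Sp1 box, searched on both strands and not capitalised, the shares were 75.9% and 35.7%. By arm, CCAAT was in 77.8% of the sterol windows and in 50% of the fatty acid windows. These matches describe letters in a window and were not tested as binding sites.

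The libraries held 3198435 to 11645432 counts. Levels are given as CPM, counts scaled to a common library size with edgeR's TMM factors, and 3 counts equalled 0.258 to 1.24 CPM, a limit that covers counting error only. Mir155hg, the host transcript of miR-155, stood at 9.08 to 20.5 CPM in floxed and 0.236 to 1.9 in deficient CD8 libraries, and at 4.88 to 8.24 and 0 to 0.649 in the CD4 libraries. Cd8a, the CD8 co-receptor, averaged 102 CPM in floxed CD4 libraries (14.6 to 150), 8.09 in treated and 0.226 in deficient ones. Counts on models like ribosomal RNA took 6.21% of floxed CD8 replicate 1, 25.7% of treated CD8 replicate 2 and 12% of deficient CD4 replicate 3, and 1.26 to 3.57% of the other libraries. Transcripts of other cells moved with the groups. The sum over 11 melanoma genes (led by Tyrp1, Pmel and Dct) ranged from 152 to 191 CPM in floxed, 1342 to 3067 in deficient and 355 to 1675 in treated CD8 libraries, and from 159 to 651, 1803 to 4246 and 433 to 1953 in the CD4 libraries. For 14 macrophage and monocyte genes the sums were 576 to 1919, 1309 to 2702 and 438 to 652 CPM in CD8 and 10790 to 23420, 2708 to 4184 and 2376 to 3981 CPM in CD4 libraries. Sums over 8 genes of dendritic cells and antigen presentation were 346 to 422.5, 802 to 1557 and 279 to 492 CPM in CD8 libraries. In CD4 libraries these sums were 7603 to 17530, 3239 to 5116 and 2243 to 3494 CPM. The sum over 14 genes of dividing cells was 4963 to 5892, 2782 to 3030 and 4984 to 5275 CPM in CD8 and 1749 to 2803, 2399 to 2673 and 3065 to 3440 CPM in CD4 libraries. Of 7 adipocyte genes Lep, Cidec and Cfd were at 0 in all libraries, but the sum was 7.46 to 17.8 CPM in floxed CD4 and 0 to 3.44 CPM in the other libraries. In floxed CD4 libraries that sum was all Fabp4, a fatty acid carrier, which was lower in floxed CD8 than CD4 cells (-6.16 ± 0.97 on the log2 scale, adjusted p = 3.72e-05 by edgeR's test) and fell with the deletion in CD4 cells (-3.84 ± 0.83, adjusted p = 0.00464). The keratinocyte genes Krt1, Krt5, Krt14 and Krt15 were at 0 in all libraries. In such bulk samples fewer cells of a type and less RNA per cell cannot be told apart.

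Lipid synthesis transcripts were lowest in floxed CD4 cells for 18 of the 31 genes, and highest in deficient CD4 cells for 12 and in floxed CD8 cells for 11. These counts were not taken over all genes tested, so they do not set the 31 genes apart from others. For CD8 cells the sterol genes summed to 843 ± 60.8 CPM (floxed), 726 ± 56.7 (deficient) and 942 ± 9.08 (treated), as mean ± SD with n = 3. For CD4 cells the same sums were 677 ± 71.5, 994 ± 62.9 and 809 ± 105 CPM. By this sum all CD8 libraries lay above all CD4 libraries in floxed and in treated mice, and below them in deficient mice. The sum of the fatty acid genes took another course, at 1056 ± 151, 986 ± 77.8 and 805 ± 53.2 CPM for CD8 and 648 ± 38.6, 882 ± 87.7 and 719 ± 46.3 CPM for CD4 cells. Its mean was larger in CD8 cells in each kind of mouse, but the libraries of the cell types overlapped in deficient mice (902 to 1055 and 780 to 936 CPM) and in treated mice (744 to 843 and 690 to 772 CPM). Most of this sum came from Acly, Fasn and Scd2, at 404, 322 and 177.5 CPM in floxed CD8 cells. Taken gene by gene, 5 of the 9 had positive and 4 negative log2 fold changes with the deletion in CD8 cells, with a median of 0.12.

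**Figure D1:**
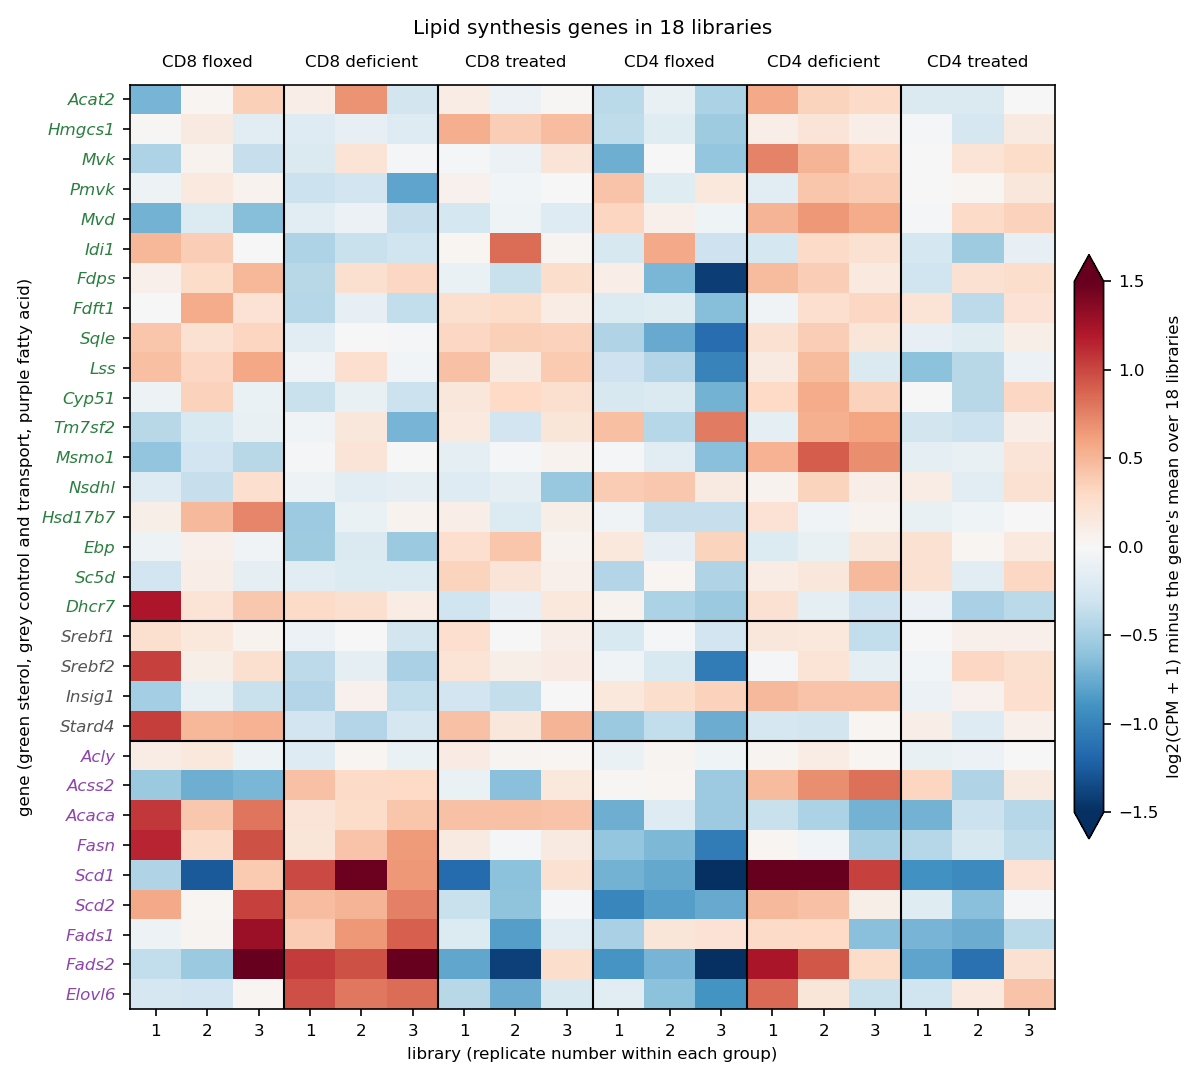
Each row is 1 gene and each column 1 of 18 libraries, grouped by cell type and by floxed, deficient or treated (deficient with antibodies) mice; color is log2(CPM + 1) minus the gene's mean over the 18 libraries. Floxed CD4 libraries are blue for most rows, and Scd1, Fads2 and Elovl6 are red in deficient CD8 libraries. Scd1 is red in deficient CD4 libraries too, and Fads2 in floxed CD8 replicate 3.

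Per kilobase of exon, the most abundant transcript was Acly, which makes cytosolic acetyl-CoA from citrate, at a mean of 73.2 CPM per kilobase over the 6 groups. It was also the flattest, with a highest group mean 1.11 times the lowest. Hmgcs1, which makes HMG-CoA, followed at 45.6 and Cyp51, which removes a methyl group from lanosterol, at 35.5 CPM per kilobase. Idi1, the isopentenyl diphosphate isomerase, was lowest at 1.18 CPM per kilobase. The group means of Scd1, a stearoyl-CoA desaturase, spread most, from 2.38 CPM (floxed CD4) to 17.9 CPM (deficient CD4), a ratio of 7.49. Acat2, Fdps, Idi1, Nsdhl and Tm7sf2 of the sterol arm, Srebf1 and Acly were called in none of the comparisons below by edgeR's test as fitted there. The nearest was Fdps, the farnesyl diphosphate synthase, in floxed CD8 against CD4 cells (0.90 ± 0.35 on the log2 scale, adjusted p = 0.0502). Fdps was called there under 8 alternatives, among them RLE scaling (adjusted p = 0.0489) and leaving out floxed CD4 replicate 1 (1.43, adjusted p = 0.00551). Without that library it was also called in the CD4 deletion (1.46, adjusted p = 0.0149) and in the difference of deletion effects between cell types (-1.71, adjusted p = 0.0269). In floxed cells Srebf1 was called without floxed CD4 replicate 2 (0.42, adjusted p = 0.0304) and with a replicate block (adjusted p = 0.0478), and Nsdhl without floxed CD8 replicate 3 (-0.63, adjusted p = 0.0299) and by limma voom (adjusted p = 0.0442). Without deficient CD4 replicate 3 Srebf1 was called in the difference of deletion (-0.57, adjusted p = 0.0436). For Fdps, reads shared with its pseudogenes could affect the counts, as those shared with Acat3 could for Acat2.

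The first comparison asked how CD8 and CD4 cells of floxed tumors differ. Floxed CD8 cells held more transcript of 13 of the 31 genes, from both arms, and less of 2. Fasn, the fatty acid synthase, was 3.03-fold higher, Scd2, a second desaturase, 2.74-fold, Acaca, the acetyl-CoA carboxylase that commits carbon to fatty acids, 2.43-fold, and Stard4, a carrier of cholesterol between membranes, 2.4-fold higher. The share called higher was 41.9% of the genes against a background of 18.9% of all genes tested, and the share called lower was 6.45% against 20.2%. The median log2 fold change was 0.37 against 0.04 over all genes.

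Of the 18 sterol enzymes 7 were called higher and 1 lower. Sqle, the squalene epoxidase, stood at 83.3, 72.6 and 77.4 CPM in floxed CD8 libraries and at 44.9, 36.2 and 27.6 in floxed CD4 libraries. The libraries did not overlap, as was so for 42.9% of all genes tested in this comparison. The test here and in what follows was edgeR's (quasi-likelihood, Benjamini-Hochberg adjusted), and gave a log2 fold change of 1.09 ± 0.15 (SE, adjusted p = 5.64e-06). Lss, which closes squalene epoxide into lanosterol, was at 57.6, 52.3 and 63 CPM for CD8 and 33.7, 30.5 and 20.4 CPM for CD4 libraries (1.02 ± 0.20, adjusted p = 0.000394), again without overlap. Dhcr7, the last reductase of the pathway, Hsd17b7, a sterol ketoreductase, Fdft1, the squalene synthase, Cyp51 and Hmgcs1 were higher by 1.04, 0.72, 0.61, 0.45 and 0.36 on the log2 scale. The call for Dhcr7 rested on floxed CD8 replicate 1, at 28.8 CPM beside 13.8 and 16 in the other two, and without that library its log2 fold change was 0.66 (adjusted p = 0.0788). Mvd, which makes isopentenyl diphosphate, was the sterol enzyme called lower, at 14.4, 20.9 and 15.1 CPM for CD8 and 30.5, 25.5 and 23.1 CPM for CD4 libraries (-0.65 ± 0.19, adjusted p = 0.00882).

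Among the control genes, Stard4 stood at 121, 82.9 and 84.2 CPM for floxed CD8 and 39.5, 45.2 and 34.6 CPM for floxed CD4 libraries (1.27 ± 0.16, adjusted p = 3.3e-06). Srebf2, which encodes SREBP2, was at 228, 119 and 132 CPM for CD8 and 108, 95.8 and 53.8 CPM for CD4 libraries (0.89 ± 0.23, adjusted p = 0.00576). All CD8 libraries lay above all CD4 libraries for both genes, with floxed CD8 replicate 1 highest and floxed CD4 replicate 3 lowest. Insig1, which holds SREBP in the endoplasmic reticulum when sterols are plentiful and is itself a target of SREBP, ran the other way, at 63.6, 83.6 and 71.8 CPM for CD8 and 102, 109 and 115 CPM for CD4 libraries (-0.57 ± 0.15, adjusted p = 0.00409). Srebf1, which encodes SREBP1, was not called (0.32 ± 0.14, adjusted p = 0.0657).

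In the fatty acid arm 4 of 9 were called higher and 0 lower. Fasn stood at 399, 219 and 349 CPM for CD8 and 120, 112 and 85.8 CPM for CD4 libraries (1.60 ± 0.19, adjusted p = 1.67e-06). Scd2 was at 174, 120 and 239 CPM for CD8 and 59.1, 65.8 and 69.2 CPM for CD4 libraries (1.46 ± 0.21, adjusted p = 2.13e-05). Acaca was at 58.2, 36.5 and 48.4 CPM for CD8 and 16.1, 23.9 and 18.4 CPM for CD4 libraries (1.28 ± 0.20, adjusted p = 2.33e-05). The groups of these genes did not overlap, and within CD8 cells replicate 2 was lowest for each. Fads2, a desaturase of polyunsaturated fatty acids, was called higher (1.96 ± 0.67, adjusted p = 0.0288), but floxed CD8 replicate 3 held 26.7 CPM beside 5.28 and 4.51, and without it the log2 fold change was 0.66 (adjusted p = 0.365). That library also had the highest macrophage sum of its group, at 1919 CPM against 576 and 670, and their part in the result was not tested.

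In the same comparison all 14 genes of dividing cells were called higher in CD8 cells, and 13 of 14 macrophage genes lower. Their part in the lipid genes was not tested. With the sums of melanoma and macrophage markers as covariates 3 of the 31 genes were called (Scd2, Fads2 and Fads1, all higher) in place of 15, and with only the 2 groups in the fit 7 were. Leaving out 1 library at a time, 10 calls held throughout, and those of Hmgcs1, Cyp51, Fdft1, Dhcr7 and Fads2 ended (adjusted p from 0.0688 to 0.365) without floxed CD8 replicates 1, 2 or 3 or floxed CD4 replicates 1 or 3.

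Deficient CD8 cells held less transcript than deficient CD4 cells of 4 sterol enzymes and Insig1, and more of Fasn and Acaca. Of the 31 genes 2 (6.45%, background 6.21%) were higher and 5 (16.1%, background 9.39%) lower, with a median log2 fold change of -0.31 against -0.02 over all genes. The share called higher was thus near that of all genes. Of the 18 sterol enzymes 17 had a negative value. Of the 5 genes called lower, Mvd and Insig1 were called lower in floxed CD8 cells too, Msmo1 and Pmvk had values of -0.19 and -0.11 there, and Cyp51 had been called higher.

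Mvd was at 21.4, 22.7 and 18.9 CPM in deficient CD8 and 34.8, 38.5 and 36.2 CPM in deficient CD4 libraries (-0.79 ± 0.18, adjusted p = 0.00516). Msmo1, a methyl sterol oxidase, was at 71.7, 83 and 72.2 CPM for CD8 and 104, 136 and 118 CPM for CD4 libraries (-0.66 ± 0.15, adjusted p = 0.00578). Insig1 was at 66.4, 95.1 and 69.8 CPM for CD8 and 128, 122 and 122 CPM for CD4 libraries (-0.69 ± 0.15, adjusted p = 0.00298). None of these overlapped between cell types, and the CD4 libraries were the higher ones. Groups without overlap were found for 39.9% of all genes tested. Cyp51 (-0.67 ± 0.17, adjusted p = 0.00978) and Pmvk, the phosphomevalonate kinase (-0.70 ± 0.19, adjusted p = 0.0162), were also lower. Acaca kept a higher level in CD8 cells, at 31.6, 33.3 and 36.8 CPM against 21.6, 19.4 and 16.4 (0.81 ± 0.19, adjusted p = 0.00666). Sqle and Stard4 were not called, at -0.33 ± 0.14 (adjusted p = 0.137) and -0.16 ± 0.16 (adjusted p = 0.569). Macrophage genes still differed here, with 4 of 14 lower in CD8 cells, while 2 of 14 genes of dividing cells were higher. Without deficient CD4 replicate 2, 4 of the 31 were called in place of 7. The calls of Cyp51, Pmvk and Fasn ended without single libraries (deficient CD4 replicates 2 or 3, deficient CD8 replicates 2 or 3, adjusted p from 0.0594 to 0.159). With the marker sums as covariates those of Fasn and Pmvk ended and Fads1 was called higher. By limma voom the call of Fasn ended.

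In treated tumors 4 of the 31 genes (12.9%, background 9.36%) were higher in CD8 than in CD4 cells and 0 lower (background 11%), with a median of 0.07 against -0.01 over all genes. They were Acaca, Hmgcs1, Lss and Sqle. Acaca was at 37.6, 37.7 and 37.1 CPM for CD8 and 16.4, 21.7 and 20.2 CPM for CD4 libraries (0.96 ± 0.20, adjusted p = 0.00132). Hmgcs1 was at 212, 187 and 200 CPM (CD8) and 142, 122 and 159 CPM (CD4) (0.50 ± 0.12, adjusted p = 0.00545). Both genes were without overlap, as was so for 42.4% of all genes tested. Lss was higher by 0.71 ± 0.20 (adjusted p = 0.0145) and Sqle by 0.41 ± 0.14 (adjusted p = 0.0499). Macrophage genes were lower in CD8 cells for 13 of 14 and genes of dividing cells higher for 12 of 14, and their part was not tested. In the fit with the replicate block Sqle was no longer called, leaving 3 genes. The call of Lss ended without treated CD8 replicate 1 or treated CD4 replicate 1 and that of Sqle without any 1 of the 6 libraries (adjusted p from 0.0507 to 0.142), and with the marker sums as covariates 0 were called.

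**Figure D2:**
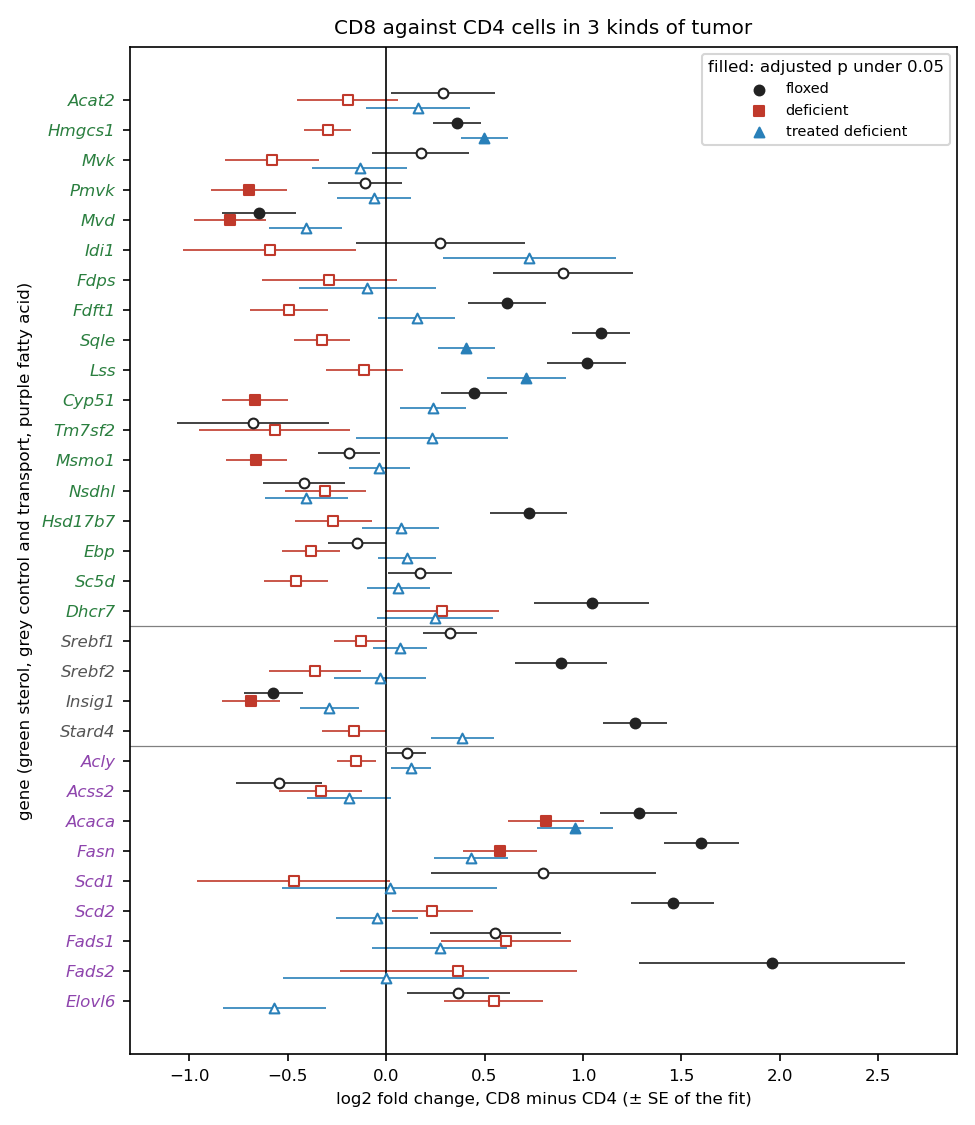
Each row is 1 gene; points are log2 fold changes of CD8 minus CD4 cells in floxed (black circles), deficient (red squares) and treated deficient (blue triangles) mice, bars are the SE of the fit, and filled points have an adjusted p under 0.05. Acaca is filled and right of 0 in all 3, while Cyp51 lies right of 0 in floxed and left of it in deficient mice.

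Acaca was the gene of the 31 called higher in CD8 cells in each of the 3 kinds of tumor. In CD4 cells its group means were 19.5, 19.1 and 19.4 CPM, and in CD8 cells 47.7, 33.9 and 37.5 CPM. Fasn was called in floxed and deficient tumors, while its value in treated tumors was 0.43 ± 0.19 (adjusted p = 0.116).

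The next comparison, called the deletion, asked how deficient and floxed CD8 cells differ. Deficient CD8 cells held less Stard4, Srebf2, Hsd17b7 and Fdft1 than floxed CD8 cells, and more Scd1, Elovl6, Acss2 and Msmo1. Stard4 fell by 1.05 on the log2 scale. Of the 31 genes 4 (12.9%, background 9.65%) rose and 4 (12.9%, background 9.61%) fell, shares near those of all genes, with a median of -0.17 against -0.01.

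By arm, 1 sterol enzyme rose and 2 fell, 2 of the 4 control genes fell, and 3 of the 9 fatty acid genes rose. Stard4 was at 121, 82.9 and 84.2 CPM in floxed and 47.6, 43 and 48.9 CPM in deficient CD8 libraries (-1.05 ± 0.16, adjusted p = 0.000129), without overlap. Srebf2 went from 228, 119 and 132 to 85, 102 and 79.8 CPM (-0.84 ± 0.23, adjusted p = 0.0167), and without floxed CD8 replicate 1 its value was -0.51 (adjusted p = 0.0823). Hsd17b7 (-0.66 ± 0.20, adjusted p = 0.0211) and Fdft1 (-0.60 ± 0.20, adjusted p = 0.0367) also fell, while Sqle did not pass, at -0.39 ± 0.14 (adjusted p = 0.0631). The genes that rose were Elovl6, an elongase of fatty acids, at 24.2, 23.5 and 29.7 CPM in floxed and 57.8, 51 and 52.5 CPM in deficient libraries (1.06 ± 0.26, adjusted p = 0.00609), and Acss2, which makes acetyl-CoA from acetate, at 21, 18.3 and 19.1 and then 42.5, 38.4 and 38.7 CPM (1.04 ± 0.21, adjusted p = 0.00198). Neither overlapped between groups. Groups without overlap were found for 34.2% of all genes tested with the deletion in CD8 cells. Scd1 rose by 1.59 ± 0.52 (adjusted p = 0.0367) and Msmo1 by 0.50 ± 0.16 (adjusted p = 0.0294).

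Beside these, 12 of 14 genes of dividing cells fell, 10 of 11 melanoma genes rose and 7 of 14 macrophage genes rose in CD8 cells with the deletion, and their part was not tested. The count fell from 8 to 5 without floxed CD8 replicate 1, to 3 without deficient CD8 replicate 1, to 5 without deficient CD8 replicate 3, and to 0 with the marker sums as covariates. The calls of Srebf2, Hsd17b7, Fdft1, Msmo1 and Scd1 each ended without at least 1 library, any of the 6 for 1 or more of them (adjusted p from 0.0508 to 0.163), while those of Stard4, Elovl6 and Acss2 held.

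In CD4 cells the deletion went with a rise in both arms. Deficient CD4 cells held more transcript of 13 of the 31 genes (41.9%, background 4.61%) and less of 0 (background 7.06%), and 28 of the 31 had a positive value. The median log2 fold change was 0.49 against 0.01 over all genes. The rises took in enzymes from the start of the sterol pathway (Hmgcs1, Mvk) to its later steps (Sqle, Lss, Cyp51, Msmo1, Sc5d), and 6 of the 9 fatty acid genes.

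Sqle went from 44.9, 36.2 and 27.6 CPM in floxed to 72.6, 80.4 and 70.4 CPM in deficient CD4 libraries, a 2.04-fold rise (log2 1.03 ± 0.15, adjusted p = 0.000176). Msmo1 went from 71.5, 64.5 and 46.5 to 104, 136 and 118 CPM (0.97 ± 0.16, adjusted p = 0.000524). Cyp51 went from 129, 131 and 92.8 to 188, 225 and 194 CPM (0.78 ± 0.17, adjusted p = 0.0046). The groups did not overlap for any of these, and floxed CD4 replicate 3 was the lowest library for each. Of all genes tested 28% had groups without overlap in this comparison. Mvk, the mevalonate kinase, rose by 0.99 ± 0.24 (adjusted p = 0.011), Lss by 0.73 ± 0.20 (adjusted p = 0.0216), Sc5d, the lathosterol desaturase, by 0.53 ± 0.16 (adjusted p = 0.0374) and Hmgcs1 by 0.49 ± 0.12 (adjusted p = 0.0122). None of the 4 control genes was called, and Srebf2 and Stard4 had values of 0.41 ± 0.23 and 0.38 ± 0.16 (adjusted p = 0.314 and 0.149).

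In the fatty acid arm Scd2 went from 59.1, 65.8 and 69.2 to 164, 159 and 124 CPM (1.21 ± 0.21, adjusted p = 0.00112). Scd1 went from 3.03, 2.88 and 1.24 to 18.7, 22.4 and 12.4 CPM (2.86 ± 0.56, adjusted p = 0.00219). The floxed values of Scd1 rest on 18, 21 and 5 counts. Neither overlapped. Fads2 (2.18 ± 0.67, adjusted p = 0.0451), Elovl6 (0.88 ± 0.26, adjusted p = 0.0323), Acss2 (0.83 ± 0.21, adjusted p = 0.0149) and Fasn (0.61 ± 0.19, adjusted p = 0.0411) rose as well. The floxed and deficient CD4 libraries of Elovl6 overlapped.

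With the deletion in CD4 cells, 12 of 14 macrophage genes fell, 7 of 11 melanoma genes rose and 3 of 14 genes of dividing cells rose, and their part was not tested. The count of 13 became 5 without floxed CD4 replicate 3, 7 without deficient CD4 replicate 1, 6 without deficient CD4 replicate 2, and 0 with the marker sums as covariates. The calls of Sqle, Msmo1, Cyp51, Scd1 and Scd2 held without any 1 library, and those of the other 8 genes each ended without at least 1 library, any of the 6 for 1 or more of them (adjusted p from 0.0501 to 0.309).

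**Figure D3:**
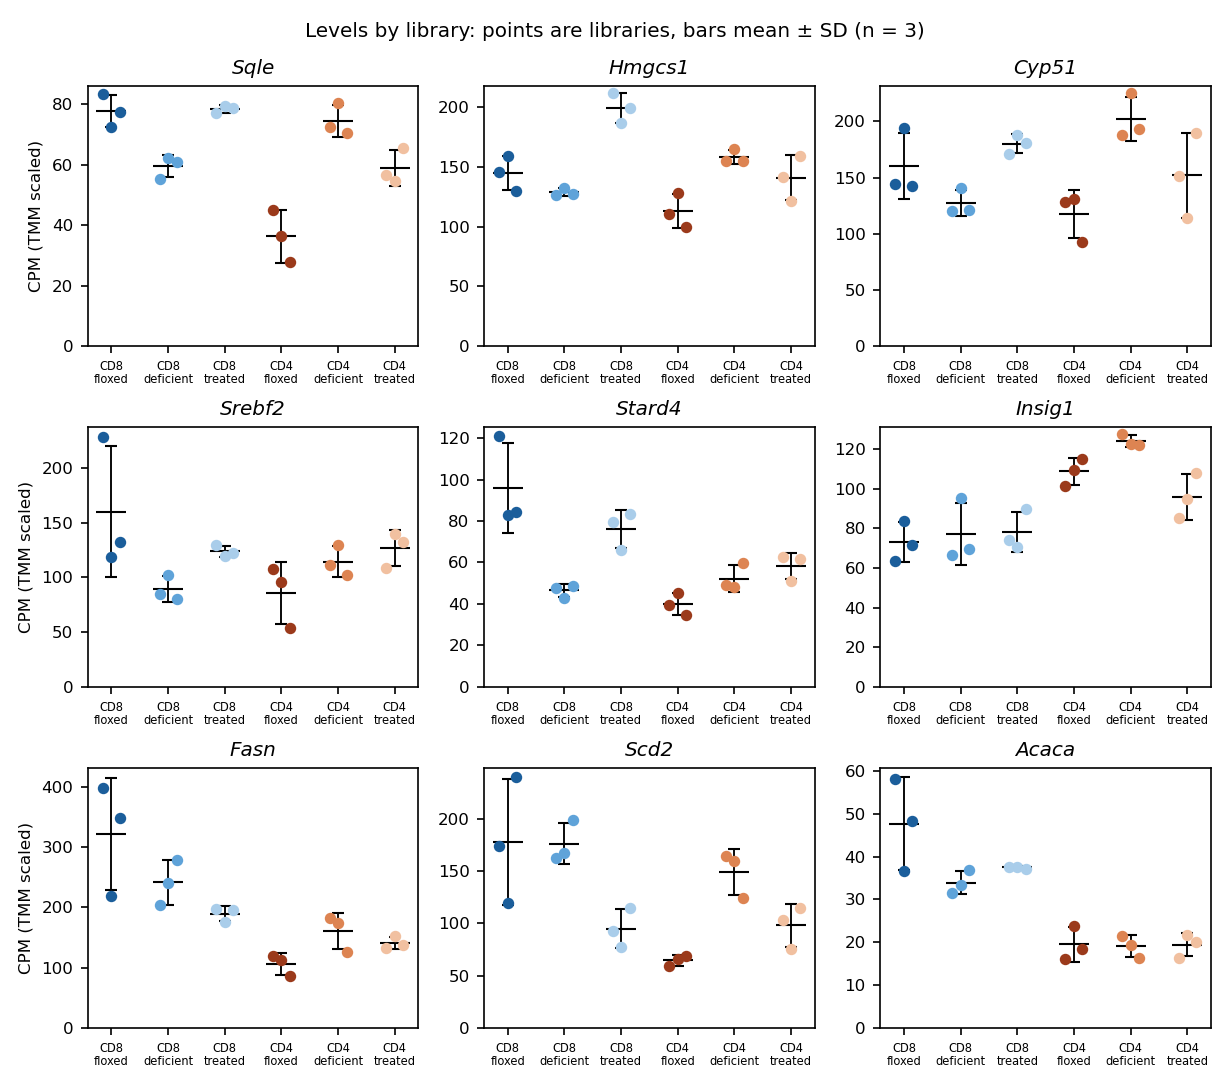
Plotted are 9 genes by group, floxed, deficient and treated (deficient with antibodies) in CD8 and then CD4 cells; each point is 1 library in CPM, and bars are mean ± SD (n = 3). Sqle, Cyp51 and Hmgcs1 stand lower in deficient than in floxed CD8 cells by mean and higher in deficient than in floxed CD4 cells, while Acaca stands near 19 CPM in every CD4 group.

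Whether the 2 cell types differed in this response was tested directly. The effect of the deletion was lower in CD8 than in CD4 cells for 10 of the 31 genes (32.3%, background 4.72%) and higher for 0 (background 6.89%), with a median difference of -0.66 against -0.04 over all genes. None of the 10 was called in both cell types: Stard4, Srebf2, Hsd17b7 and Fdft1 were called lower in CD8 cells, and Sqle, Scd2, Lss, Cyp51, Fasn and Hmgcs1 higher in CD4 cells. The values of all 10 were negative in CD8 and positive in CD4 cells, but that of Scd2 in CD8 cells was -0.0091 ± 0.21, with means of 177.5 CPM in floxed and 176.1 CPM in deficient cells. They were 6 sterol enzymes, Srebf2 and Stard4, and Fasn and Scd2.

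For Stard4 the difference of the 2 log2 fold changes was -1.43 ± 0.23 (adjusted p = 0.000391), and for Sqle -1.42 ± 0.20 (adjusted p = 0.000175). Srebf2 (-1.25 ± 0.33, adjusted p = 0.019), Scd2 (-1.22 ± 0.29, adjusted p = 0.00997), Lss (-1.13 ± 0.28, adjusted p = 0.0111), Cyp51 (-1.11 ± 0.24, adjusted p = 0.00368) and Fdft1 (-1.11 ± 0.28, adjusted p = 0.0119) followed. Fasn (-1.02 ± 0.26, adjusted p = 0.0146), Hsd17b7 (-0.99 ± 0.28, adjusted p = 0.0231) and Hmgcs1 (-0.66 ± 0.17, adjusted p = 0.0149) completed the list. The genes that rose with the deletion in both cell types had other values, with differences of 0.21 ± 0.30 for Acss2, 0.18 ± 0.36 for Elovl6, -0.47 ± 0.22 for Msmo1 and -1.27 ± 0.75 for Scd1 (adjusted p = 0.733, 0.821, 0.193 and 0.329).

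The same difference was negative for 13 of 14 genes of dividing cells and positive for 12 of 14 macrophage genes, by the same test, and their part was not tested. Sqle and Scd2 were still called with the marker sums as covariates, the 2 of 31 that were. Leaving out 1 library gave 9 to 12 genes, and the call of Hsd17b7 ended without floxed CD8 replicate 3, deficient CD8 replicate 1, floxed CD4 replicate 3 or deficient CD4 replicate 1 (adjusted p from 0.0522 to 0.0797). Without the 3 libraries rich in ribosomal-like counts Srebf2 was no longer called (-0.96, adjusted p = 0.0556).

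**Figure D4:**
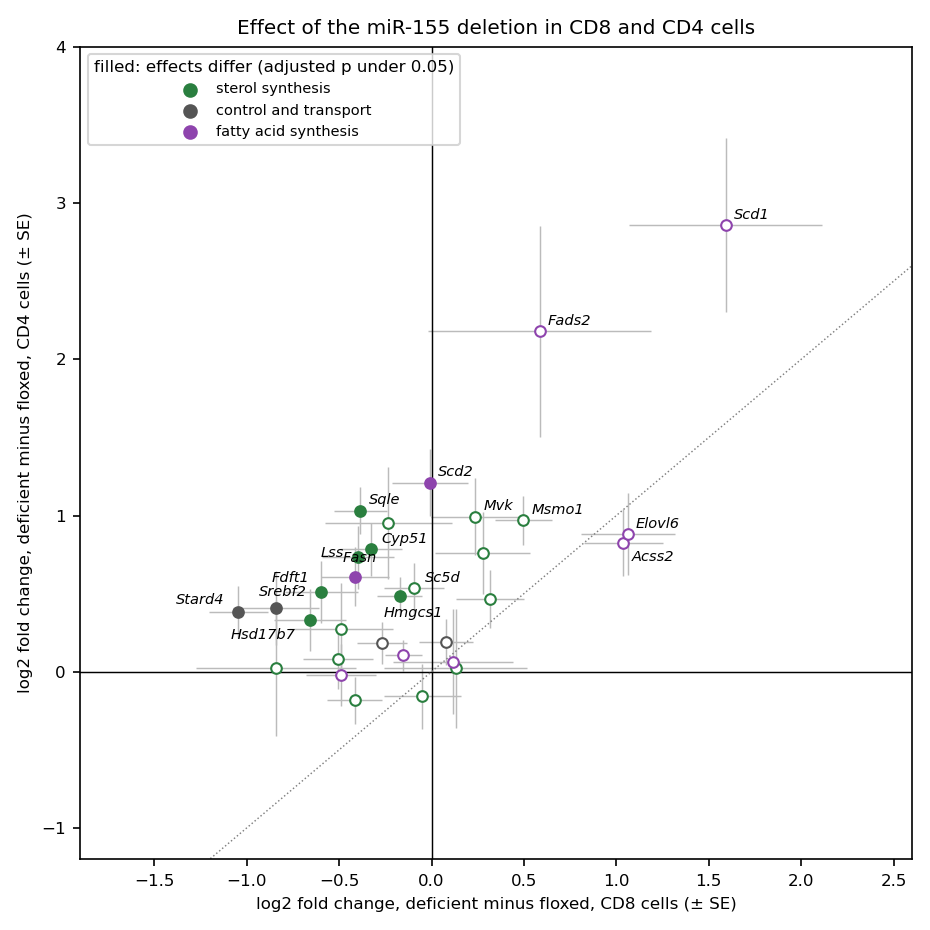
Each point is 1 gene, with the log2 fold change of deficient minus floxed cells in CD8 (x axis) and CD4 cells (y axis), bars of 1 SE and the line of equal effects dotted; named points were called in either cell type or for the difference, and filled points have effects that differ at an adjusted p under 0.05. The 10 filled points lie left of 0 on the x axis, Scd2 almost on it, and above 0 on the y axis, and Elovl6 and Acss2 lie near the dotted line.

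The antibody comparison asked what blockade changes in deficient cells. In CD8 cells Stard4, Ebp and Hmgcs1 rose, and the desaturases and elongase Scd1, Scd2, Fads1 and Elovl6 fell. Of the 31 genes 3 (9.68%, background 8.25%) rose and 4 (12.9%, background 5.53%) fell, with a median of 0.15 against -0.03 over all genes. The share that rose was thus near that of all genes, and the arms were not tested against each other. All 4 that fell were of the fatty acid arm, whose median was -0.88, while the sterol arm had a median of 0.26 with 2 of 18 called.

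Hmgcs1 went from 127, 132 and 127 CPM in untreated to 212, 187 and 200 CPM in treated deficient CD8 libraries (0.63 ± 0.12, adjusted p = 0.0014). Ebp, the sterol isomerase, went from 49.9, 62.3 and 49.2 to 86.7, 97.3 and 75.4 CPM (0.68 ± 0.15, adjusted p = 0.00415). Stard4 went from 47.6, 43 and 48.9 to 79.6, 65.8 and 83.4 CPM (0.72 ± 0.16, adjusted p = 0.0047). The treated libraries of each lay above the untreated ones. Elovl6 went from 57.8, 51 and 52.5 to 21.4, 17 and 24.4 CPM (-1.33 ± 0.26, adjusted p = 0.00162), and Scd2 from 162, 168 and 199 to 92.8, 77 and 114 CPM (-0.88 ± 0.21, adjusted p = 0.00777). Their treated libraries lay below the untreated ones. In this comparison 44.1% of all genes tested had groups without overlap, in either direction. Scd1 fell by 1.67 ± 0.53 (adjusted p = 0.0395) and Fads1, a desaturase that makes arachidonic acid, by 1.03 ± 0.34 (adjusted p = 0.0491).

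Genes of dividing cells rose in treated CD8 cells, 14 of 14, and 10 of 14 macrophage genes fell. None of the 11 melanoma genes was called by edgeR's test, though all 11 had negative values, with a median of -1.60. The part of all these was not tested. Without any 1 of the 6 libraries the call of Fads1 ended, and that of Scd1 ended without any but treated CD8 replicate 3 (adjusted p from 0.0545 to 0.198). With the marker sums as covariates 0 were called, without the 3 libraries rich in ribosomal-like counts 4, and with only the 2 groups in the fit 16.

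In CD4 cells 0 of the 31 genes rose (background 0.0852%) and 0 fell (background 0.0568%) with blockade by edgeR's test. At an unadjusted p under 0.05 there were 10. The share of all genes at that level was not taken, so this count does not set the 31 genes apart from others. DESeq2 called 2, and it also called more of all genes, as given below. Of the values 27 were negative and 4 positive, with a median of -0.29 against -0.01 over all genes. Msmo1 had the smallest adjusted p, 104, 136 and 118 CPM in untreated and 65.2, 66.9 and 83 CPM in treated CD4 libraries (-0.73 ± 0.15, adjusted p = 0.0646). Scd1 was at 18.7, 22.4 and 12.4 and then 2.53, 2.41 and 6.69 CPM (-2.16 ± 0.53, adjusted p = 0.116). The groups of both genes did not overlap, as was so for 20% of all genes tested. Without treated CD4 replicate 3 both were called lower (adjusted p = 0.0308 and 0.0375), and in the fit with the replicate block Msmo1 was (adjusted p = 0.04).

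The blockade effects of CD8 and CD4 cells differed for 1 of the 31 genes, Hmgcs1 (0.80 ± 0.17, adjusted p = 0.0286), which was 3.23% against a background of 0.575%. For 0 genes was the difference negative and called (background 0.227%). The Hmgcs1 call ended without 10 of the 12 libraries that entered the comparison, left out 1 at a time (adjusted p from 0.0533 to 0.145), the exceptions being deficient CD4 replicate 1 and treated CD4 replicate 3. The 4 fatty acid genes that fell in CD8 cells also had negative values in CD4 cells, and none of their differences was called, with Elovl6 at -1.12 ± 0.36 (adjusted p = 0.175) and Scd2 at -0.28 ± 0.29 (adjusted p = 0.771). The Elovl6 difference was called without deficient CD4 replicate 1 (-1.496, adjusted p = 0.0398) and with no filter on low counts (-1.13, adjusted p = 0.0181).

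Within groups, Scd1 varied between libraries in the order of the melanoma sum's extremes. Scd1 was at 12.1, 17.4 and 9.36 CPM in deficient CD8 replicates 1 to 3, where the melanoma sums were 3067, 3038 and 1342 CPM. In treated CD8 replicates it was at 1.98, 3.31 and 6.71 CPM beside sums of 355, 468 and 1675. In deficient CD4 replicates it was at 18.7, 22.4 and 12.4 CPM beside 4246, 3659 and 1803, and in treated CD4 replicates at 2.53, 2.41 and 6.69 CPM beside 606, 433 and 1953. In each of these 4 groups replicate 3 was the extreme for both measures, lowest in the untreated and highest in the treated groups. How many of all genes tested had the same extremes was not counted, and the part of melanoma cells was not tested. Floxed CD8 replicate 3 held 7.66 CPM of Scd1 at a melanoma sum of 191. Scd2, Fads1, Elovl6 and Fads2 had the same extremes in 3 of these 4 groups, and Acss2 in treated CD8 cells only. Scd2 was at 92.8, 77 and 114 CPM in treated CD8, 164, 159 and 124 in deficient CD4 and 103, 75.6 and 115 in treated CD4 replicates. Fads1 was at 25.3, 16.1 and 25.9 CPM, 36, 36.5 and 18.7 CPM, and 17.8, 17.2 and 21.9 CPM in the same groups. Elovl6 was at 21.45, 17 and 24.4 CPM, 53.2, 32.9 and 22.9 CPM, and 23.4, 32.2 and 39.4 CPM there. Fads2 in replicate 3 was at 8.706, 8.766 and 8.505 CPM in these groups. Deficient CD8 cells were the exception for Scd2, Fads1, Elovl6 and Fads2. Replicate 3 there was highest for Scd2 (162, 168 and 199 CPM), Fads1 (38.7, 46.9 and 55.5 CPM) and Fads2 (15.8, 14.7 and 23.3 CPM). For Elovl6 it lay between the others (57.75, 50.95 and 52.5 CPM). The macrophage sums of the deficient CD8 replicates were 1309, 1764 and 2702 CPM. With both sums as covariates the value of Scd1 in the CD8 deletion was -1.06 in place of 1.59, and in the CD8 blockade 0.00069 in place of -1.67. Neither was called in that fit. Scd1 and Scd2 are close paralogues, and reads they share could have been lost or split in counting.

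**Figure D5:**
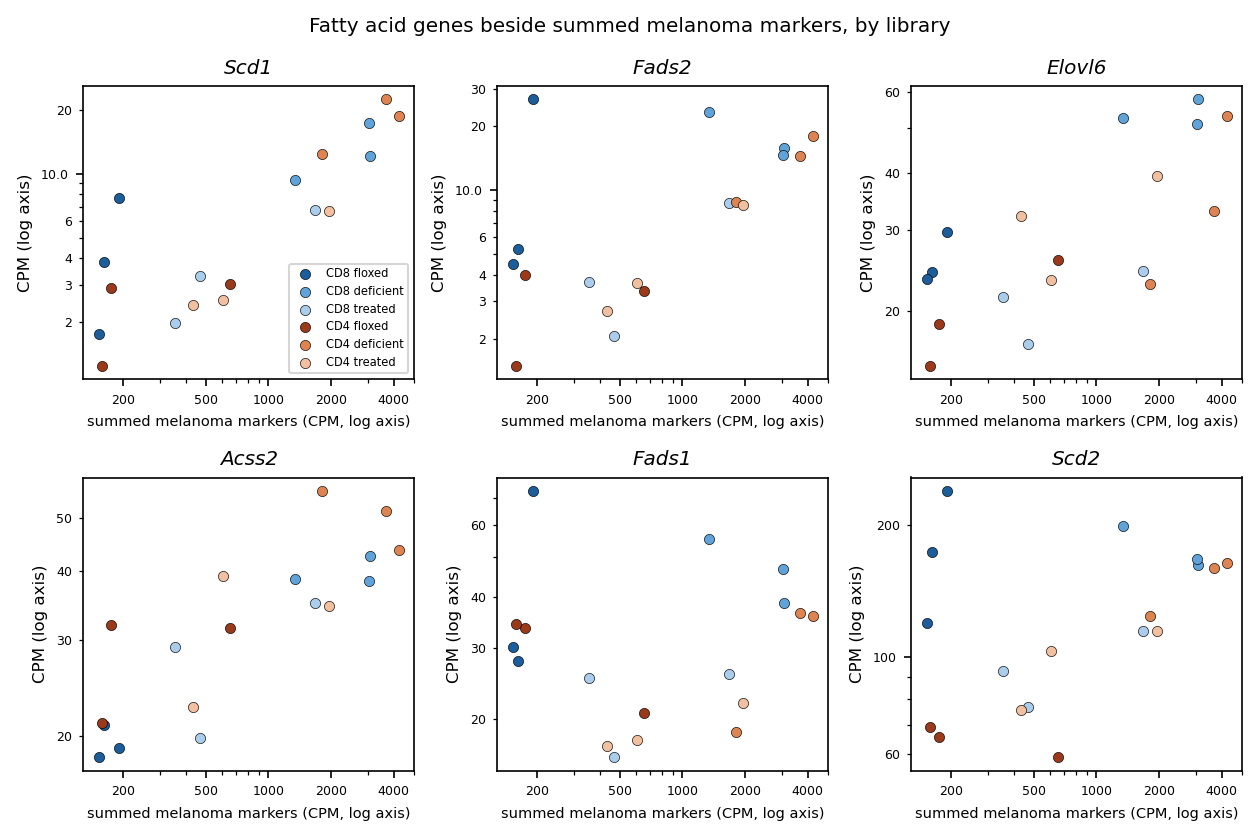
Each panel is 1 gene and each point 1 of 18 libraries, with the summed CPM of 11 melanoma genes on the x axis and the gene's CPM on the y axis, both log axes; colors are the 6 groups. Scd1 is highest in the libraries with the largest melanoma sums, and floxed CD8 replicate 3 stands high for Fads2, Fads1 and Scd2 at a melanoma sum of 191 CPM.

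Other genes of lipid handling, from lists fixed beside the 31, moved in their own ways. Of 11 genes of sterol efflux, storage and lysosomal release, many driven by the oxysterol receptors LXR, 9 were lower in floxed CD8 than CD4 cells and 0 higher (background 20.2% and 18.9%). With the deletion 8 fell and 0 rose in CD4 cells (background 7.06% and 4.61%), while 5 rose and 0 fell in CD8 cells (background 9.65% and 9.61%). The difference was called for 9, all positive (background 6.89%). Abcg1, a sterol exporter, had values of -1.80 ± 0.15 (adjusted p = 6.85e-07) in CD4 and 1.16 ± 0.15 (adjusted p = 3.85e-05) in CD8 cells. Npc2, a lysosomal sterol carrier, had values of -0.74 ± 0.13 and 0.45 ± 0.13, and Nceh1, a cholesterol ester hydrolase, of -0.81 ± 0.14 and 0.50 ± 0.14. Macrophage genes had the same directions, with 12 of 14 lower in CD4 and 7 of 14 higher in CD8 cells, and their part was not tested. With blockade Abcg1 fell in CD8 cells by 1.11 ± 0.16 on the log2 scale (adjusted p = 8.37e-05), 1 of 3 of this list that did (background 5.53%).

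Of 6 genes that process SREBP 3 were higher in floxed CD8 than CD4 cells (background 18.9%), among them Scap, the escort to the Golgi (0.68 ± 0.18, adjusted p = 0.00534), and Mbtps1, a protease that cuts SREBP (0.44 ± 0.11, adjusted p = 0.00291), and Rnf139 was lower (-0.87 ± 0.14, adjusted p = 3.91e-05). With the marker sums as covariates the value of Scap was -0.31. Insig2 was the 1 of the 6 that rose with the deletion in CD4 cells (0.89 ± 0.25, adjusted p = 0.0253, background 4.61%), and in CD8 cells Rnf139, a ubiquitin ligase, rose (0.65 ± 0.14, adjusted p = 0.00234). In CD8 cells 1 of the 6 thus rose and 1 fell (background 9.65% and 9.61%), with a median log2 fold change of -0.26 against -0.01 over all genes. Of 22 further genes of fatty acid and glycerolipid synthesis 4 rose with the deletion in CD4 cells (background 4.61%), among them Dgat1, which makes triglycerides (value with the marker sums as covariates -0.21, otherwise 0.81 ± 0.18, adjusted p = 0.00507), and 2 rose and 2 fell in CD8 cells, shares near those of all genes (9.65% and 9.61%). Dgat1 and Dgat2 were lower in CD8 than CD4 cells in each of the 3 kinds of tumor. Of 15 genes of fatty acid oxidation, Cpt1a, which brings fatty acids into mitochondria, fell with the deletion in both cell types (-0.53 ± 0.14 in CD8, adjusted p = 0.0105, and -0.88 ± 0.14 in CD4, adjusted p = 0.00051). It was 1 of 3 of that list that fell in CD8 (background 9.61%) and the 1 that fell in CD4 cells (background 7.06%), and 3 rose with blockade in CD8 cells (background 8.25%). Of 9 genes of the isoprenoid branches 1 fell with the deletion in each cell type, Pggt1b, a subunit of a prenyl transferase, a share near those of all genes that fell (9.61% in CD8 and 7.06% in CD4 cells).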

How the data were processed

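The authors deposited 1 table of read counts per gene for each of the 18 libraries. Per the file headers, reads were counted with featureCounts 1.5.1, reverse stranded, on the Ensembl release 87 annotation, with no option to count reads that map to several places. Per the submitters' processing notes, STAR, featureCounts and DESeq2 were used on GRCm38. Symbols came from GENCODE M21, which held 49412 of 49671 identifiers.

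The counts as deposited entered 1 edgeR 4.0.16 fit in R 4.3.3 (filterByExpr, TMM, robust quasi-likelihood, 6 groups, 12 residual degrees of freedom). P-values were adjusted by Benjamini-Hochberg over 14080 genes, and a gene was called below 0.05. Alternatives used limma 3.58.1 and DESeq2 1.42.0, and scripts were tested on simulated data. The highest correlation between 2 libraries was 0.9817. Same-numbered CD8 and CD4 libraries of treated mice deviated together (correlations from 0.103 to 0.289), so their numbers were taken to pair them, from the data alone. In deficient mice the correlations were 0.0934 to 0.164, each highest with its own number, and 2 of 3 passed the minimum of 0.1 set for pairing. These were not taken as paired, and the main fit held no replicate block for either. The replicate block of the alternative fit joined same-numbered libraries of all 6 groups, so it was not a paired test of treated mice alone.

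The 31 genes, the other lists and the tests were chosen with earlier results of these data known. Any of the 31 could be named. From the other lists, the called genes with the smallest adjusted p were named, and from the marker lists those with the highest levels. The values of a gene of the other lists are not reported here, though the counts of its list include it.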

Additional observations from a re-analysis of the deposited data

Results flagged for a closer look

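The deletion effect differed between CD8 and CD4 cells, by the contrast of the 2 effects in edgeR's quasi-likelihood test, for 10 of the 31 genes. The differences, CD8 minus CD4 on the log2 scale, were -1.43 for Stard4, -1.42 for Sqle, -1.25 for Srebf2, -1.22 for Scd2, -1.13 for Lss, -1.11 for Cyp51, -1.11 for Fdft1, -1.02 for Fasn, -0.99 for Hsd17b7 and -0.66 for Hmgcs1. The blockade effect differed for Hmgcs1, by 0.80. Macrophage markers and genes of dividing cells also differed between the cell types in the deletion contrast, and their part was not tested.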

How the results depend on the processing

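Counts of called genes among the 31 were recomputed under 10 other settings for each of the 9 comparisons, and 70 of these 90 counts stayed within 1.5 times the main count. With melanoma and macrophage marker sums as covariates, the count went from 15 to 3 (CD8 against CD4, floxed), 4 to 0 (treated), 8 to 0 (deletion, CD8), 13 to 0 (deletion, CD4), 7 to 0 (blockade, CD8), 10 to 2 (difference of deletion) and 1 to 0 (difference of blockade). These sums track the groups, and the cause was not tested. In that fit the values of Hmgcs1 (-0.097, adjusted p = 0.903 by edgeR's test) and Srebf2 (-0.012, adjusted p = 0.995) changed sign in floxed CD8 against CD4 cells. Those of Scd1 did so in the CD8 deletion (-1.06, adjusted p = 0.637) and CD8 blockade (0.00069). None of these was called in that fit. Among other genes the sign changed for Scap in floxed cells (-0.31), Pggt1b in the CD8 deletion (0.19) and Dgat1 in the CD4 deletion (-0.21).

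With only the groups compared in the fit, fewer samples set the spread, and the counts were 7 (floxed), 4 (deletion, CD8), 16 (blockade, CD8), 2 (blockade, CD4) and 3 (difference of blockade). Blockade in CD4 gave 4 with no filter and 2 with DESeq2, and its difference 3 with either. In the fit with the replicate block, blockade in CD4 gave 1 (Msmo1), and the counts of the other comparisons stayed within 1.5 times. Numbers outside the treated mice gave correlations from -0.182 to 0.184, with 0.0934 to 0.164 between deficient CD8 and CD4 libraries. Without the 3 libraries rich in ribosomal-like counts (chosen after seeing the data) the counts were 4 (blockade, CD8), 5 (deletion, CD8) and 0 (difference of blockade).

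Leaving out 1 library gave 12 to 16 (floxed), 4 to 8 (deficient), 2 to 3 (treated), 3 to 8 (deletion, CD8), 5 to 10 (deletion, CD4), 5 to 7 (blockade, CD8), 0 to 2 (blockade, CD4), 9 to 12 (difference of deletion) and 0 to 2 (difference of blockade). Over the 65 called results of single genes, 904 of 1106 alternatives kept the call, 198 lost it with the same sign, and 4 lost it with the sign changed. Calls over all 14080 genes for blockade in CD4 moved from 20 to 541 with no filter, 172 with DESeq2, 51 with only the groups compared and 65 with the replicate block. With covariates 5506 became 888 (floxed), 2870 became 1038 (treated), 2712 became 123 (deletion, CD8), 1643 became 8 (deletion, CD4), 1941 became 253 (blockade, CD8), 20 became 8 (blockade, CD4) and 1634 became 149 (difference of deletion). With only the groups compared, floxed gave 3454 and blockade in CD8 3985, and without the ribosomal-rich libraries blockade in CD4 gave 4 and its difference 50. Leaving out 1 library gave 1331 to 1745 (deficient, main 2196), 1862 to 2301 (treated), 1641 to 2716 (deletion, CD8), 783 to 1584 (deletion, CD4), 919 to 1651 (blockade, CD8), 0 to 106 (blockade, CD4) and 49 to 108 (difference of blockade). For the difference of blockade the 113 became 665, 354, 589 and 179, and the share of its calls that were higher went from 71.7% to 34.9% with no filter and 57.1% with DESeq2. The filter also moved that share for blockade, from 59.9% to 48.6% in CD8 and from 60% to 48.1% in CD4 cells. At 3198435 to 11645432 counts a library, Scd1 and Fads2 in floxed CD4 cells rest on 5 to 29 counts.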

Other observations

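Within floxed CD8 cells 2 libraries stood apart in different genes. Replicate 1, with 6.21% of counts on models like ribosomal RNA, held 228 CPM of Srebf2, 121 of Stard4 and 28.8 of Dhcr7, the highest of all 18 libraries for each. Replicate 3, with a macrophage sum of 1919 CPM, held 72.8 CPM of Fads1, 26.7 of Fads2 and 239 of Scd2, again the highest of the 18. Elovl6 in deficient CD4 cells ranged from 22.9 to 53.2 CPM over its 3 libraries, where floxed CD4 libraries ran from 15.2 to 25.8 CPM.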
